A study of Homo sapiens with 8 samples.

Results

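The 40 genes described here are the expressed protein-coding genes that start within one stretch of the short arm of human chromosome 1, between 112.5 and 121.4 Mb in GRCh38, next to the centromere. They were chosen by position, with a mean of at least 1 CPM (counts normalised to the scaled library size) over 8 libraries. The stretch itself was picked because its genes had lower counts in one group of these libraries than in the other. Of the 199 genes of any kind in the count table that start there, 66 are protein-coding and 40 of those reached the minimum, against 1182 such genes on chromosome 1 and 11813 in the genome. Of the remaining 26 genes, 13 had 0 counts in all 8 libraries. An observed count of 0 still allows an expected count of up to 3 in a library. All comparisons between the groups for these 40 genes are therefore descriptions. Calls from fits over all genes are counted for them, but support nothing.

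RNA was sequenced from Alexander1 cells, an established epithelial line from a human hepatocellular carcinoma, in 4 libraries of the line itself and 4 of a derivative. The line, labelled wt and Axin1 -, has lost the GSK3-binding part of Axin1, a scaffold that holds Wnt signalling in check, and the pathway is always on in it. In the derivative, labelled Axin1+, full-length Axin1 from Addgene plasmid 24928 was added to the same cells with a VSVG retrovirus, and cells were selected with hygromycin B as clones, so the derivative may descend from 1 cell. The labels repeat the transfer and selection for the wt samples as well, so whether wt cells went through them is unclear, and they do not say whether replicates were separate cultures. P-values given for other genes therefore measure only the spread between these samples, and in bulk RNA fewer cells with a transcript and less transcript per cell cannot be told apart.

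Genes that lie side by side on a chromosome usually each have their own promoter and regulators, although neighbours that start head to head can share a promoter. The short arm of chromosome 1 next to the centromere holds genes of unrelated function. They include the small GTPases NRAS and RHOC, the receptor NOTCH2 and the serine-synthesis enzyme PHGDH. It ends in duplicated segments whose genes, such as those of the NBPF, FAM72 and SRGAP2 families, have near-identical copies elsewhere on the chromosome.

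The libraries held between 11232951 and 15263761 counts in wt and between 12372436 and 26400782 counts in Axin1+, so that 3 counts stood for 0.108 to 0.267 CPM. On the first principal component (55.9% of the variance) Axin1+ replicate 1 lay at 22.2, nearer the wt libraries (-46.7 to -42.6) than the other Axin1+ libraries did (48.7 to 56.8). On the second (21.0%), wt replicate 1 stood apart at 61.5, against -30.3 to 25.0 for the others. AXIN1 itself was at 52.4 ± 3.49 CPM in wt and 45.4 ± 5.13 CPM in Axin1+ (SD, n = 4 each). It was not called (edgeR adjusted p 0.267; exact two-sided permutation p 0.114 over 70 labelings; log2 difference -0.21, SE 0.12), so the direction of every comparison rests on the labels. All 12 hepatocyte markers were expressed, at summed levels of 24616 to 28895 CPM in wt and 18488 to 22159 CPM in Axin1+. Most of that sum was SERPINA1 (16130 CPM in wt and 10358 CPM in Axin1+ on average). It was called lower (log2 fold change -0.64, edgeR adjusted p 0.0164), as were TF (-0.94, edgeR adjusted p 0.00993) and APOA2 (-2.14, edgeR adjusted p 0.000243). FGB (log2 fold change 2.05, edgeR adjusted p 6.39e-05) and TTR (1.76, edgeR adjusted p 0.0259) were called higher, and the other hepatocyte markers were not called. ALB was at 46.7 to 208 CPM in wt, at 13.8 CPM in Axin1+ replicate 1 and at 445 to 681 CPM in replicates 2 to 4. Fibroblast markers summed to at most 4.20 CPM and immune markers to at most 1.25 CPM in any library, with CD3E at 0 counts. Among endothelial markers PECAM1 rose from 5.18 to 48.2 CPM (adjusted p 8.45e-06, edgeR's quasi-likelihood test), while the summed level of the list went from 4.54 to 6.77 CPM in wt to 34.1 to 58.5 CPM in Axin1+ and VWF and CDH5 stayed near 0. The part of these differences in the results below was not tested.

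All 40 genes had lower mean levels in Axin1+ than in wt, with a median log2 fold change of -0.58 (interquartile range -0.76 to -0.39), against 0.01 (-0.27 to 0.31) over all genome genes that met the same minimum. A fold change below 0 was found for 49.8% of the 14289 genes tested. The direction was not fixed for each gene: 38 of the 40 genes were below 0 with libraries scaled by their total counts alone (median -0.51), 39 with limma-voom, and between 37 and 40 with 1 library left out. At an adjusted p under 0.05 in edgeR's quasi-likelihood test, 12 of the 40 genes were called lower and 0 higher, where 8.77% of all tested genes were called lower and 10.4% higher. In 12 genes all 4 Axin1+ libraries lay below all 4 wt libraries, which was so for 11.2% of tested genes, and in 0 genes all 4 lay above, which was so for 12.7%. Among the 40 genes next to the stretch towards the telomere, 16 were called lower and 14 were lower without overlap. Nothing is read from these counts, since the stretch was picked on this contrast.

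The 4 Axin1+ libraries did not share the difference equally. The median log2 ratio of the 40 genes to the wt mean was -0.07 in Axin1+ replicate 1, -0.74 in replicate 2, -0.79 in replicate 3 and -0.66 in replicate 4. In levels, these ratios correspond to 95.3%, 59.9%, 57.8% and 63.3% of the wt mean. Replicate 1 therefore sat near wt as a group of genes, and the other 3 libraries sat near one another. Over all genome genes of this level the medians were 0.04, 0.004, 0.03 and 0.03 in Axin1+ replicates 1 to 4. On chromosome 13 they were 0.03, -0.37, -0.33 and -0.18, and on chromosome 2 they were 0.05, -0.26, -0.25 and -0.16. A replicate 1 near wt beside lower replicates 2 to 4 was thus not particular to the stretch. Below the lowest wt library lay 14 genes in replicate 1, 34 in replicate 2, 34 in replicate 3 and 27 in replicate 4, where the shares over all genome genes of this level were 25.1%, 27%, 25.8% and 29.4%. Above the highest wt library lay 5 genes in replicate 1 and 0 in replicates 2, 3 and 4, where the shares over the genome were 28.5%, 27.7%, 28.8% and 32.9%. Replicates 2 to 4 were all below every wt library in 26 of the 40 genes, against 17% of genome genes. Replicate 1 was the highest of the 4 Axin1+ libraries in 36 genes, a count whose share over the genome was not computed. It lay within the wt range in 21, which, given the genome shares above, is not read as a trait of these genes.

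The wt libraries also differed among themselves at these genes. Against the mean of the other 3 wt libraries, the median log2 ratio was -0.36 in wt replicate 1, 0.05 in replicate 2, 0.25 in replicate 3 and 0.07 in replicate 4. wt replicate 1 was below that mean in 30 of the 40 genes and in 6476 of the 11813 genome genes of this level, where its median was -0.06. By chromosome, its median ran from -0.41 on chromosome 18 to 0.21 on chromosome 19, so a low wt replicate 1 was not particular to these genes. The 40 genes together took 0.204% of all counts in wt replicate 1 (95% Wilson interval 0.202 to 0.207), 0.243% in replicate 2, 0.256% in replicate 3 and 0.240% in replicate 4. In Axin1+ they took 0.235% in replicate 1, 0.133% in replicate 2, 0.142% in replicate 3 and 0.155% in replicate 4. The Axin1+ replicate 1 share thus lay inside the wt range, and the intervals, which cover counting error only, were far narrower than the spread between libraries (0.236% ± 0.0222 in wt and 0.166% ± 0.0465 in Axin1+, SD, n = 4 each). Without Axin1+ replicate 1 the median log2 fold change was -0.79 and 24 of the 40 genes were called lower, where 11% of tested genes were. Without both wt replicate 1 and Axin1+ replicate 1, an omission chosen after seeing the data, it was -0.84. There 34 were called lower, where 15.7% of tested genes were. By their medians these libraries lay nearest the other group at the 40 genes, so a larger difference without them was given by the choice and is not read.

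**Figure D1:**
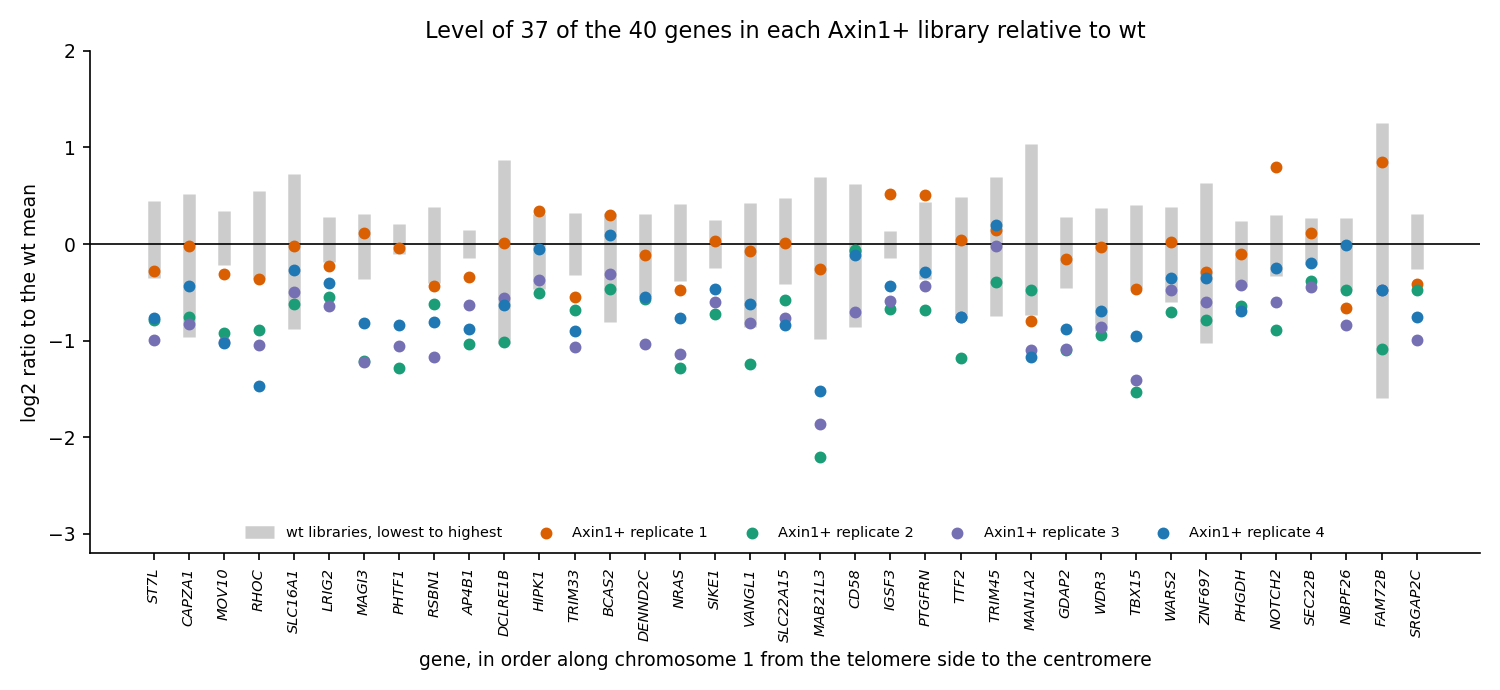
Log2 ratio of 37 of the 40 genes (x axis, in order along the chromosome from the telomere side) to the wt mean in each Axin1+ library (coloured points), with the lowest to highest wt library as a grey bar. Axin1+ replicate 1 lies within or above the grey bar for most of the genes shown (20 within, 5 above), while replicates 2 to 4 all lie below it for 23. Over all genome genes of this level, replicate 1 lay below every wt library in 25.1% and above every wt library in 28.5%. Replicates 2 to 4 all lay below every wt library in 17% of them.

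Position set the stretch apart only on its centromere side. The 40 expressed protein-coding genes next to it towards the telomere, from HENMT1 to WNT2B (108.65 to 112.47 Mb), had a median log2 fold change of -0.56, with 38 of 40 lower, and per-library medians of -0.16, -0.87, -0.82 and -0.77 in Axin1+ replicates 1 to 4. The 40 genes before those, from EVI5 to EEIG2 (92.51 to 108.56 Mb), had a median of -0.54 with 37 lower, and the 40 before them, from NEXN to GFI1 (77.89 to 92.47 Mb), a median of -0.29 with 31 lower. Further out, the 40 genes from PATJ to MIGA1 (61.74 to 77.78 Mb) had a median of -0.02 with 21 lower, and the 40 from ORC1 to TM2D1 (52.37 to 61.68 Mb) again a lower one, -0.36 with 34 lower and per-library medians of -0.15, -0.47, -0.47 and -0.38. Lower medians thus also lay outside the stretch between 112.5 and 121.4 Mb, whose telomere boundary is that of the selection. Across the centromere this pattern was not seen. The first 40 expressed genes of the long arm, from NBPF15 to PRPF3 (144.42 to 150.32 Mb), had a median of 0.01 with 19 lower and per-library medians of 0.08, -0.14, 0.07 and 0.05. Over the first 10 of them, from NBPF15 to ITGA10, Axin1+ replicate 2 was still at -0.38. The rest of chromosome 1 had a median of -0.11 over 1059 tested genes, of which 658 were lower.

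**Figure D2:**
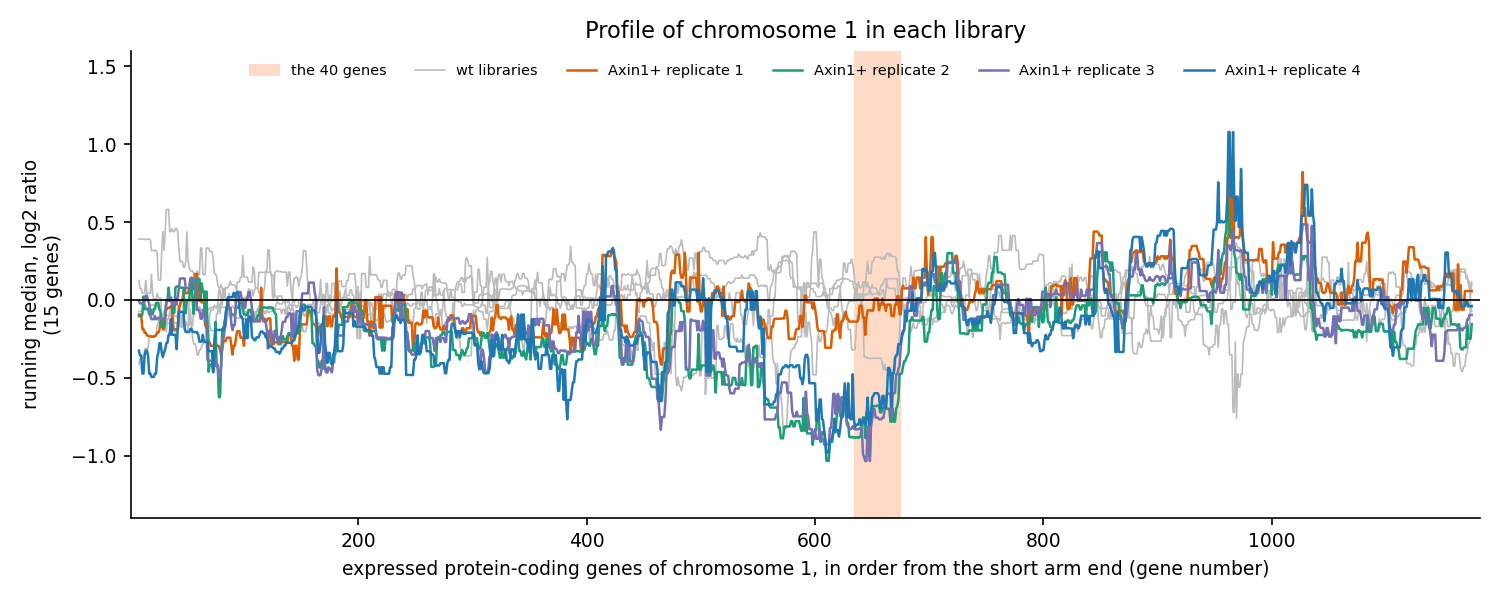
Running median over 15 genes of the log2 ratio to the wt mean (y axis; for wt libraries, to the mean of the other wt libraries) along the expressed protein-coding genes of chromosome 1 in order (x axis, gene number), for each library. Axin1+ replicates 2 to 4 are low from well before the shaded 40 genes to their end. Over the first 10 genes of the long arm the medians of replicates 3 and 4 were near 0 (-0.02 and -0.08), and that of replicate 2 was -0.38. Axin1+ replicate 1 stays nearer 0, with medians between -0.25 and 0.005 over successive groups of 10 genes of the stretch.

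Along the stretch, successive groups of 10 genes had median log2 fold changes of -0.70, -0.57, -0.53 and -0.48. Across the 40 genes the log2 fold change had a Spearman correlation of 0.21 with position, -0.02 with mean level and 0.02 with exon length. These are descriptions across genes of the same libraries, and genes are not independent replicates. At the telomere boundary the nearest genes outside were CTTNBP2NL (-0.32) and WNT2B (-0.51), and the nearest inside were ST7L (-0.70) and CAPZA1 (-0.53). At the centromere boundary the last genes inside were FAM72B (-0.28) and SRGAP2C (-0.67), and the next expressed genes outside were NBPF15 (-0.06) and SRGAP2B (0.04) on the long arm. At the level minimum, MAB21L3 (1.13 CPM on average) and NBPF26 (1.52 CPM) were just inside, and PPM1J (0.379 CPM) and OLFML3 (0.308 CPM) just outside. PPM1J stood at 0.801, 0.271, 0.356 and 0.429 CPM in wt replicates 1 to 4 and 0.466, 0.165, 0.345 and 0.195 CPM in Axin1+. OLFML3 was detected mainly in Axin1+ replicate 1, at 1.97 CPM, against 0 to 0.267 CPM elsewhere.

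Per kilobase of exon, RHOC (39.1 CPM per kb), PHGDH (31.1), CAPZA1 (29.4) and NRAS (22.3) were among the abundant transcripts of the stretch in wt. In these units they were at 20.8, 22.6, 20.3 and 12.0 in Axin1+, where PHGDH stood first among those named here. The wt level of RHOC was far above that of NBPF26, the lowest at 0.296 CPM per kb.

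Among signalling genes, NRAS, a small GTPase that passes growth factor signals to RAF kinases, was lower in every Axin1+ library. Its level was 80.4, 100.3, 122 and 95.2 CPM in wt replicates 1 to 4 and 70.7, 40.5, 44.6 and 58.0 CPM in Axin1+ replicates 1 to 4, a log2 fold change of -0.89 (SE 0.19). The groups did not overlap, although Axin1+ replicate 1 came within 10 CPM of wt replicate 1. RHOC, a small GTPase that controls the actin cytoskeleton, was at 206, 160.3, 128 and 135 CPM in wt and 120.5, 83.6, 75.1 and 55.9 CPM in Axin1+ (-0.91, SE 0.23), also without overlap. Here wt replicate 1 was the highest library, the reverse of its place for NRAS. TRIM33, a ubiquitin ligase and chromatin reader of the TGF-beta pathway, was at 45.2, 40.8, 35.7 and 32.3 CPM in wt and 26.1, 23.8, 18.2 and 20.5 CPM in Axin1+ (-0.80, SE 0.16). All 4 Axin1+ libraries, replicate 1 included, were below the lowest wt library.

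NOTCH2, a receptor whose cleaved inner part acts in the nucleus and which is known for bile duct formation in the liver, split the Axin1+ libraries. It was at 16.7, 17.6, 23.3 and 22.8 CPM in wt, and at 34.7 CPM in Axin1+ replicate 1 against 10.6, 13.1 and 16.8 CPM in replicates 2 to 4. Replicate 1 was thus at 172% of the wt mean and the other 3 averaged 67.2% of it, so that the fold change over the group was close to 0 (-0.09, SE 0.32) and turned to 0.10 without Axin1+ replicate 2 and 0.05 without replicate 3. HIPK1, a nuclear kinase, had a like order at smaller size, with 24.5, 32.5, 36.8 and 32.6 CPM in wt, 39.6 CPM in Axin1+ replicate 1 and 21.96, 24.2 and 30.2 CPM in replicates 2 to 4 (-0.12, SE 0.20). VANGL1, a membrane protein of planar cell polarity, was at 9.26, 15.4, 18.2 and 17.2 CPM in wt and 13.9, 6.11, 8.23 and 9.45 CPM in Axin1+ (-0.66, SE 0.27). The low wt replicate 1 made the VANGL1 groups overlap. MAGI3, a scaffold protein at cell junctions, was at 8.01, 9.48, 10.2 and 11.4 CPM in wt and 10.5, 4.13, 4.09 and 5.46 CPM in Axin1+ (-0.68, SE 0.30), and Axin1+ replicate 1 alone lay in the wt range. LRIG2 (-0.45, SE 0.17), a membrane protein with leucine-rich repeats, was lower in all 4 Axin1+ libraries than in any wt library, at 7.29 to 9.76 CPM against 10.4 to 13.3 CPM.

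The genes that act on RNA differed in how far replicate 1 stood from the other Axin1+ libraries. MOV10, an RNA helicase, was at 79.7, 80.6, 73.9 and 98.8 CPM in wt and 66.8, 43.8, 41.0 and 40.8 CPM in Axin1+ (-0.79, SE 0.18), without overlap. WDR3, a nucleolar protein of the small ribosomal subunit's assembly, was at 30.0, 53.8, 56.1 and 58.3 CPM in wt and 46.9, 24.8, 26.4 and 29.6 CPM in Axin1+ (-0.63, SE 0.25). For WDR3 the first replicate of each group stood apart and lay on the side of the other group. BCAS2, a spliceosome component, was at 15.7, 28.0, 28.2 and 26.5 CPM in wt and 29.6, 17.3, 19.2 and 25.5 CPM in Axin1+ (-0.10, SE 0.22; 0.01 without Axin1+ replicate 2), with the groups overlapping. TTF2, a transcription termination factor, had a log2 fold change of -0.63 (SE 0.27), with replicates 2 to 4 at 9.82 to 13.3 CPM below the wt range of 14.95 to 28.9 CPM and replicate 1 inside it at 23.2 CPM.

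Of the enzymes and transporters, PHGDH, the first enzyme of serine synthesis from glycolysis, was at 322, 312, 287 and 226 CPM in wt and 264, 182, 212 and 176 CPM in Axin1+ (-0.46, SE 0.17), overlapping through replicate 1. SLC16A1, the lactate and pyruvate carrier MCT1, was at 27.5, 44.3, 63.5 and 46.2 CPM in wt and 42.8, 28.2, 30.7 and 36.1 CPM in Axin1+ (-0.39, SE 0.23). WARS2, the mitochondrial tryptophanyl-tRNA synthetase, was at 7.39, 10.6, 12.4 and 10.9 CPM in wt and 10.3, 6.19, 7.24 and 7.89 CPM in Axin1+ (-0.38, SE 0.22). For SLC16A1 wt replicate 1 was the lowest of all 8 libraries, and for WARS2 it lay between Axin1+ replicates 3 and 4.

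Genes of membrane traffic and the cell surface had log2 fold changes from -0.95 (MAN1A2) to -0.16 (PTGFRN). MAN1A2, a Golgi mannosidase that trims N-glycans, was at 152, 86.3, 78.1 and 60.7 CPM in wt and 51.0, 63.7, 41.4 and 39.4 CPM in Axin1+ (-0.95, SE 0.26). The wt spread was wide, and only Axin1+ replicate 2 lay above the lowest wt library. AP4B1, a subunit of the AP-4 adaptor complex, was at 18.1, 17.0, 18.7 and 19.8 CPM in wt and 14.4, 8.92, 11.8 and 9.95 CPM in Axin1+ (-0.70, SE 0.17), without overlap. CAPZA1, a subunit of the actin capping protein, was at 70.6, 141, 153 and 121 CPM in wt and 115, 68.9, 65.6 and 86.2 CPM in Axin1+ (-0.53, SE 0.24). Its first replicates again lay towards the other group. SEC22B, a SNARE protein between the endoplasmic reticulum and the Golgi, was at 65.1, 75.8, 83.8 and 68.3 CPM in wt and 79.0, 56.1, 53.6 and 63.6 CPM in Axin1+ (-0.22, SE 0.15).

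Among 3 immunoglobulin-family surface proteins, IGSF3 was at 60.8, 64.0, 67.5 and 70.5 CPM in wt, at 94.0 CPM in Axin1+ replicate 1, and at 41.0, 43.7 and 48.4 CPM in replicates 2 to 4 (-0.21, SE 0.24). PTGFRN was at 24.1, 27.1, 36.6 and 30.1 CPM in wt, at 41.5 CPM in Axin1+ replicate 1 and at 18.2, 21.5 and 23.9 CPM in replicates 2 to 4 (-0.16, SE 0.25). In both, replicate 1 was above and the other 3 below every wt library. CD58, a ligand of the T cell surface protein CD2, was at 7.30, 11.4, 11.8 and 5.44 CPM in wt and 8.14, 8.17, 5.22 and 7.89 CPM in Axin1+ (-0.29, SE 0.27), with no clear order of the libraries.

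Transcription factors and genes of other or less known function made up the rest. TBX15, a T-box transcription factor, was at 11.2, 15.3, 13.7 and 17.6 CPM in wt and 10.3, 4.87, 5.32 and 7.30 CPM in Axin1+ (-1.04, SE 0.25), without overlap. MAB21L3 was at 2.22, 2.30, 0.891 and 1.29 CPM in wt and 1.29, 0.248, 0.345 and 0.468 CPM in Axin1+ (-1.42, SE 0.51), a value that rests on as few as 3 counts in a library. ST7L was at 15.6, 10.3, 11.8 and 12.3 CPM in wt and 10.2, 7.10, 6.16 and 7.22 CPM in Axin1+ (-0.70, SE 0.21), and its groups did not overlap. TRIM45, a member of the TRIM family of ubiquitin ligases, was at 2.22, 1.90, 3.74 and 4.15 CPM in wt and 3.16, 2.15, 2.81 and 3.28 CPM in Axin1+, the fold change nearest 0 (-0.06, SE 0.30) and one whose sign turned with total-count scaling (0.01) and limma-voom (0.02). Further members were PHTF1 (-0.72), RSBN1 (-0.76), GDAP2 (-0.76), DCLRE1B (-0.59, a nuclease of telomere ends), DENND2C (-0.56), SIKE1 (-0.42), SLC22A15 (-0.53) and ZNF697 (-0.58). Of these, RSBN1 had groups without overlap, at 4.29 to 7.25 CPM in Axin1+ and 7.94 to 12.0 CPM in wt.

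**Figure D3:**
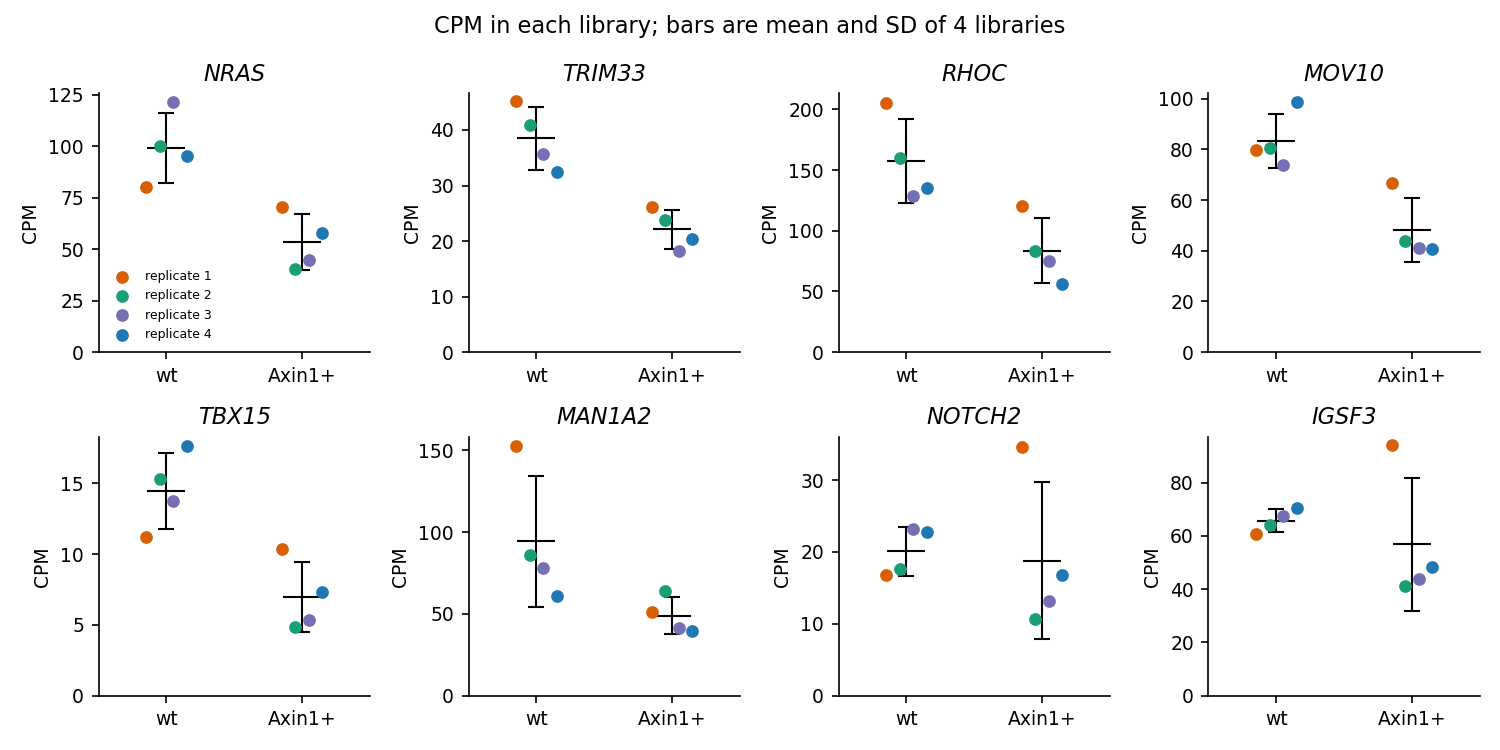
CPM (y axis, from 0) in each wt and Axin1+ library for 8 of the genes, with points coloured by replicate number and bars for the mean and SD of 4 libraries. In NRAS, TRIM33, RHOC, MOV10 and TBX15 all Axin1+ points lie below the wt points, in MAN1A2 the groups overlap through Axin1+ replicate 2, and in NOTCH2 and IGSF3 Axin1+ replicate 1 lies above the wt range.

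Genes with near-identical copies are uncertain, because how reads shared between copies were assigned is not given in the sources used here. NBPF26 was at 2.05, 1.35, 1.96 and 1.79 CPM in wt and 1.08, 1.24, 0.936 and 1.76 CPM in Axin1+ (-0.50, SE 0.30). SRGAP2C, a partial copy of the neuronal gene SRGAP2, was at 6.41, 5.35, 5.34 and 4.72 CPM in wt and 4.05, 3.88, 2.66 and 3.16 CPM in Axin1+ (-0.67, SE 0.22), without overlap. FAM72B was at 1.07, 2.50, 3.21 and 5.08 CPM in wt and 4.77, 1.16, 1.82 and 1.83 CPM in Axin1+ (-0.28, SE 0.50; 0.11 without wt replicate 4). Its wt spread covered all Axin1+ libraries. NOTCH2 and SEC22B also have partial copies on chromosome 1.

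Of the genes of other types that start in the stretch, 7 reached 1 CPM, and 6 of them were lower in Axin1+, at a median log2 fold change of -0.78. Their per-library medians were -0.68, -0.83, -0.89 and -0.92 in Axin1+ replicates 1 to 4, so here replicate 1 was low as well. SLC16A1-AS1, antisense to SLC16A1, was at 28.1, 15.5, 9.98 and 15.3 CPM in wt and 8.43, 7.84, 5.86 and 5.62 CPM in Axin1+ (-1.31, SE 0.29). LINC00623, a long non-coding RNA, was at 15.8, 14.3, 12.3 and 12.9 CPM in wt and 7.71, 5.04, 5.03 and 5.62 CPM in Axin1+ (-1.23, SE 0.19). In both the groups did not overlap. WARS2-AS1 (-0.63, SE 0.22) and the pseudogene NBPF8 (-0.39, SE 0.24) were lower and the pseudogene PDE4DIPP2 (0.19, SE 0.33) was not. Because the use of strand in counting is not given, reads of SLC16A1 and WARS2 cannot be told apart from those of their antisense partners where exons overlap. Of the 40 genes, 9 share exon bases with another expressed gene, and the other 31 had a median log2 fold change of -0.63.

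Some of the 40 genes start head to head, on opposite strands and close together, although the distance depends on the annotation. The starts of GDAP2 and WDR3 (log2 fold changes -0.76 and -0.63) lie 90 bases apart by the outermost start in GENCODE and 118 by RefSeq. AP4B1 and DCLRE1B (-0.70 and -0.59) start 298 bases apart by RefSeq, while their outermost GENCODE transcripts overlap. ZNF697 and PHGDH (-0.58 and -0.46) start 638 bases apart by GENCODE but 63668 bases apart by RefSeq, whose PHGDH start is the one used for the promoter below. The stretch between the GENCODE starts of GDAP2 and WDR3, chr1:117929631-117929719 on the plus strand, holds no annotated exon and 1 CCAAT box (in capitals), and is shown because it separates the starts of 2 of the genes. Whether it acts as a promoter for both was not measured:
GDAP2/WDR3: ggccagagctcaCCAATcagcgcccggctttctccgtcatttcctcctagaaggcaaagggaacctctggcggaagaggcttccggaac

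Promoters were taken from RefSeq (GRCh38.p14) for the 29 of the 40 genes with an entry, as the 250 bases before the start, and searched for 4 motifs on both strands. The core of the site of TCF/LEF factors, which carry Wnt signals to genes, was searched as CTTTGA and found in 4 of 29 (13.79%: MOV10, LRIG2, WDR3 and SEC22B), where 11.21% of all 35114 promoters in the table hold it. The CCAAT box was in 15 (51.72%, where 32.01% of all hold it). The GC box, searched as GGGCGG, was in 21 (72.41%, where 42.64% of all hold it). The TATA box, searched as TATAAA, was in 2 (6.9%: MAB21L3 and PHGDH, where 10.72% of all hold it). Both matches lay on the strand opposite to the gene, 116 bases before the start in MAB21L3 and 213 in PHGDH. None of the 4 motifs contains another, and a match describes the letters and is not a binding site. The shares over all promoters count every RefSeq start of a gene, while 1 start per gene was used for the 29. The windows of AP4B1 and DCLRE1B overlap, as do those of GDAP2 and WDR3, so shared matches are counted for both genes. The median GC content was 62.0%, against 58.0% over all, and the table as a whole includes genes that these cells do not express. The following 4 promoters, each free of annotated exon bases, are examples from genes that differ in fold change or in their order of libraries. Capitals mark TCF/LEF cores, CCAAT boxes and TATA boxes on either strand. TRIM33 was low in all 4 Axin1+ libraries (chr1:114511204-114511453, minus strand) and NOTCH2 was high in replicate 1 (chr1:120069663-120069912, minus strand). SEC22B, with a log2 fold change of -0.22, has a TCF/LEF core (chr1:120176521-120176770, minus strand). MAB21L3, with a log2 fold change of -1.42, has a match to the TATA box on the opposite strand (chr1:116111149-116111398, plus strand).
TRIM33: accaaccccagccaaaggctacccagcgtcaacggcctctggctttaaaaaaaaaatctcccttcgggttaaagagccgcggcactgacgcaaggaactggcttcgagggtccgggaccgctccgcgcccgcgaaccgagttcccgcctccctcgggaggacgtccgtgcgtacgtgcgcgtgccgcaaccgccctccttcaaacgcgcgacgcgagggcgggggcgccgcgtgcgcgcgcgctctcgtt
NOTCH2: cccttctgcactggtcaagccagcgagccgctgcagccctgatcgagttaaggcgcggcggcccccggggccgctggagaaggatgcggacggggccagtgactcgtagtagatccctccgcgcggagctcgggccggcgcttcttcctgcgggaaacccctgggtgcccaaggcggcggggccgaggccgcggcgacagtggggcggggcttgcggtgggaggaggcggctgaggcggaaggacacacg
SEC22B: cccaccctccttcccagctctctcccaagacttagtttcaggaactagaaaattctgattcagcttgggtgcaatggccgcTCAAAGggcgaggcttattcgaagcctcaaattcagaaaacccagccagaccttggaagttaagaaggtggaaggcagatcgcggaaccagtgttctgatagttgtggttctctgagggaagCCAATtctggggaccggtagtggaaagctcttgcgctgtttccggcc
MAB21L3: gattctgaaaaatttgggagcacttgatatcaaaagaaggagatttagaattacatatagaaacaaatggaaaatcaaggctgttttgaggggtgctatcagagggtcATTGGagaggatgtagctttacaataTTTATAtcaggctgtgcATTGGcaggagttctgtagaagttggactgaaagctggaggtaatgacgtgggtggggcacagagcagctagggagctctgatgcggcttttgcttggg
The TRIM33 and NOTCH2 windows are rich in GC (67.2% and 72.8%) and hold none of the capitalised motifs, the SEC22B window holds 1 TCF/LEF core and 1 CCAAT box, and the MAB21L3 window, at 43.6% GC, holds 2 CCAAT boxes and 1 TATA box.

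Paralogues of these genes at other loci, which the selection did not use, had values on both sides of 0. Of 33 listed paralogues 28 were tested. Their median log2 fold change was 0.08, against 0.00 over all genes, and 3 were called lower and 6 higher in edgeR's quasi-likelihood test, where 8.77% of all tested genes were called lower and 10.4% higher. TRIM24, a chromatin reader related to TRIM33, rose from 73.3 ± 12.4 to 151 ± 43.9 CPM (SD, n = 4 each; log2 fold change 1.05, edgeR adjusted p 0.00814), and all 4 Axin1+ libraries lay above all wt libraries. RHOB, a small GTPase close in sequence to RHOC, fell from 146 ± 18.8 to 66.2 ± 3.46 CPM (-1.14, edgeR adjusted p 0.00023), and was low in Axin1+ replicate 1 as well, at 68.1 CPM against 63.0 to 70.2 CPM in the others. Both calls held in all 17 alternative analyses of each. Other calls were NOTCH3 and SLC16A3 lower and HIPK2, IGSF8 and MAN1A1 higher. The calls of SLC16A3, IGSF8 and MAN1A1 were each lost in 7 of 17 alternative analyses and that of HIPK2 in 6, with adjusted p reaching 0.146 at most (edgeR, DESeq2 or limma). The paralogues HRAS (-0.06, adjusted p 0.831, edgeR) of NRAS, RHOA of RHOC (0.18, adjusted p 0.327, edgeR) and NOTCH1 of NOTCH2 (0.06, adjusted p 0.861, edgeR) did not pass the test.

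**Figure D4:**
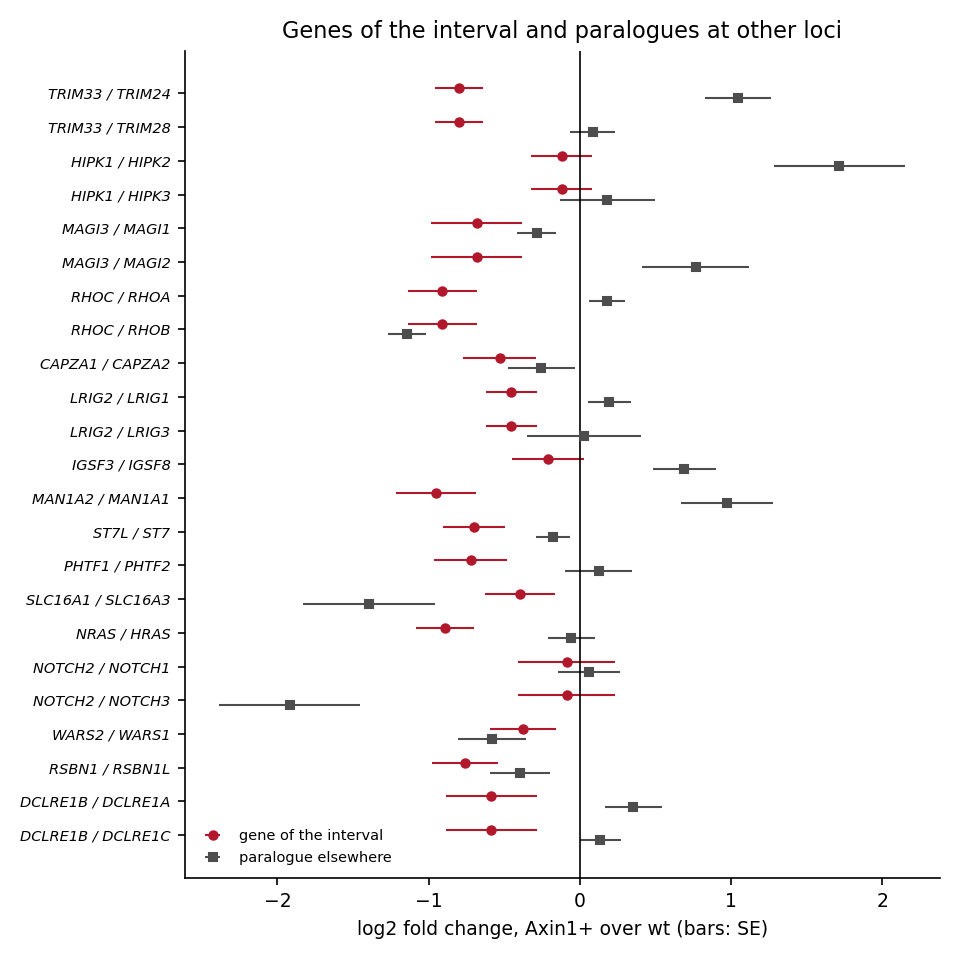
Log2 fold change of Axin1+ over wt (x axis) with its SE for 23 pairs of a gene of the stretch (red circles) and a paralogue at another locus (grey squares), 1 pair per row. The red circles lie left of 0 by the choice of the stretch (NOTCH2, at -0.09, turns without Axin1+ replicate 2), so their distance to the squares is not read, and the squares lie right of 0 in 14 pairs and left of it in 9.

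Partners of these genes in their pathways, from lists chosen by function, are read against the 8.77% of all tested genes called lower and the 10.4% called higher. Counts this small in lists of 9 to 28 tested genes do not set a list apart from that background. For NOTCH2, 28 of 31 genes of the Notch pathway were tested (median -0.03), of which 1 was called lower and 3 higher. NCSTN, a subunit of the gamma-secretase that cleaves the receptors, rose from 228 ± 15.9 to 316 ± 12.2 CPM (0.47, edgeR adjusted p 0.0145). MAML1, a co-activator, rose from 25.1 ± 2.72 to 37.1 ± 5.30 CPM (0.57, edgeR adjusted p 0.0225), and the ligand gene DLL4 rose too. MAML1 lies on chromosome 5, where the median log2 fold change was 0.42 and 172 of 499 tested genes were called higher. The part of that shift in the MAML1 value was not tested. NOTCH3, another receptor, fell from 13.2 ± 6.22 to 3.43 ± 2.31 CPM (-1.92, edgeR adjusted p 0.0169), with Axin1+ replicate 1 at 6.85 CPM above the lowest wt library at 5.51 CPM.

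For NRAS, 19 genes of the RAS and RAF pathway were tested (median -0.05), with 1 called lower and 1 higher. BRAF, a kinase activated by RAS, fell from 35.3 ± 7.61 to 19.5 ± 5.48 CPM (-0.85, edgeR adjusted p 0.0215). NF1, which switches RAS off, rose from 37.0 ± 2.16 to 50.9 ± 7.52 CPM (0.46, edgeR adjusted p 0.0339), and RASA1, of the same function, did not pass (0.72, edgeR adjusted p 0.0606). RASA1, like MAML1, lies on chromosome 5. For PHGDH, 16 of 18 genes of serine and one-carbon metabolism were tested (median -0.04), with 2 called lower and 1 higher. ALDH1L2, a mitochondrial folate enzyme, fell from 18.03 ± 4.69 to 3.62 ± 3.86 CPM (-2.27, edgeR adjusted p 0.0159), where Axin1+ replicate 1 was at 9.40 CPM and the other 3 at 1.49 to 1.91 CPM. SHMT2, which turns serine into glycine in mitochondria, fell from 354 ± 27.9 to 262 ± 24.7 CPM (-0.44, edgeR adjusted p 0.0299), and MTHFD2L rose from 6.94 ± 0.585 to 10.5 ± 1.06 CPM (0.60, edgeR adjusted p 0.0286).

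For VANGL1, 9 of 13 genes of planar cell polarity were tested (median -0.22), with 1 called lower and 0 higher. CELSR1, an adhesion receptor of that pathway, fell from 66.7 ± 5.36 to 44.8 ± 11.6 CPM (-0.57, edgeR adjusted p 0.0387), while CELSR3 (-0.70, edgeR adjusted p 0.0621) and DVL3 (-0.22, edgeR adjusted p 0.192) did not pass. Of 10 tested partners in protein complexes (median 0.10), 1 was called lower and 1 higher. CAPZB, the other subunit of the capping protein and also on chromosome 1, fell from 449 ± 36.7 to 335 ± 32.1 CPM (-0.42, edgeR adjusted p 0.0363). EMB, an accessory protein of monocarboxylate carriers, rose from 0.460 ± 0.415 to 1.35 ± 0.198 CPM (1.61, edgeR adjusted p 0.0423). This value rests on as few as 2 counts in a library, and EMB also lies on chromosome 5. AP4E1, a partner of AP4B1, did not pass (0.51, edgeR adjusted p 0.0522). Calls near the threshold were lost in some of the alternative analyses: in 8 of 17 for SHMT2, CELSR1 and CAPZB, in 8 of 16 for EMB, in 7 for NF1 and MTHFD2L, in 5 for BRAF and MAML1, in 4 for DLL4, in 3 for NCSTN, in 2 for NOTCH3 and in 1 for ALDH1L2, with adjusted p reaching 0.129 at most.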

How the data were processed

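RNA sequencing of mRNA libraries from 8 samples was analysed, 4 labelled wt and 4 labelled Axin1+, with groups and replicate numbers from the sample titles. The authors deposited raw counts per gene under Ensembl identifiers, without normalization, as the whole numbers and differing totals show. Per the submitters' processing notes, bcl2fastq, fastp 0.23.1, STAR 2.7.4 and the build GRCh38 were used. The counting program, annotation and use of strand are not given in the sources used here. Every column matched 1 sample by its name in the labels.

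Positions and gene types are those of GENCODE release 29 (GRCh38), which held 57943 of the 58206 identifiers and may not be the release the authors used. The filter filterByExpr (at least 10 counts, total of 15) left 14289 genes, which were scaled by TMM and tested with edgeR 4.0.16 (glmQLFit, glmQLFTest, R 4.3.3) without covariates. P-values are two-sided, adjusted by Benjamini-Hochberg over all genes tested, at a threshold of 0.05. Standard errors were derived from the F statistic and the fold change. CPM use scaled totals, and log2 CPM a prior count of 2. On simulated counts for 14083 genes with 200 changed, edgeR recovered 93.5% of 4-fold and 57.9% of 2-fold changes, and among its 158 calls 5.70% were false.

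The members and all gene lists were chosen with earlier results of these data known. Some genes are not reported here, although counts over the 40 genes and the lists include them, and the naming that follows passes over them. Every other gene of the stretch could be named. Values per library are given for a list of members with known roles, the 8 most abundant, the 5 lowest and 5 highest fold changes, and those next to a limit of the selection. Single values of other members, and of the non-coding genes, were added after their values were seen. From each list of pathway partners or paralogues the 3 genes with the smallest p were named, and further ones were added to set beside members. Alternatives were other scalings (upper-quartile factors, size factors of DESeq2, totals alone), other filters (none, or a mean of 1 CPM), other tests (limma-voom in limma 3.58.1, the Wald test of DESeq2 1.42.0), a block for the replicate number, a threshold of 0.01, a prior count of 0.5, other sets of members, and leaving out each library. Leaving out wt replicate 1 and Axin1+ replicate 1 together was chosen after seeing the data.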

Additional observations from a re-analysis of the deposited data

Results flagged for a closer look

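Over 76 groups of 4 values (37 of the 40 genes and the median of the 40, in wt and in Axin1+), 5 held a library whose gap to the nearest of the others, as a share of the whole range, was above Dixon's 95% critical value for 4 samples, where chance alone gives about 1 in 20 groups. Axin1+ replicate 1 stood above the other 3 Axin1+ libraries for the RNA helicase MOV10 (66.8 CPM against 40.8 to 43.8 CPM) and the surface protein IGSF3 (94.0 against 41.0 to 48.4 CPM). wt replicate 1 stood below the other 3 wt libraries for the spliceosome component BCAS2 (15.7 CPM against 26.5 to 28.2 CPM) and the ribosome assembly factor WDR3 (30.0 against 53.8 to 58.3 CPM). Axin1+ replicate 3 stood below the others for CD58 (5.22 CPM against 7.89 to 8.17 CPM). The first replicate of a group was the one apart in 4 of the 5. Genes of the same libraries are not independent, so nothing is read from this count.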

How the results depend on the processing

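The median log2 fold change of the 40 genes stayed below 0 in every alternative run, between -0.84 without wt replicate 1 and Axin1+ replicate 1 together and -0.50 without Axin1+ replicate 2, and 0 of the 40 genes were called higher in any. Leaving out 1 library at a time gave medians of -0.79 to -0.50, between 37 and 40 genes lower, between 0 and 3 genes higher, between 6 (without Axin1+ replicate 3 or 4) and 24 (without Axin1+ replicate 1) genes called lower, and between 1394 and 3523 genes called over the whole table. It gave 7 called lower without wt replicate 2 and 19 without wt replicate 1. Fewer or more calls among the 40 genes went with fewer or more calls over the whole table in all 8 of these omissions. With total counts only, 2 genes were higher and the median of Axin1+ replicate 1 was 0.052, above 0, and with limma-voom 1 gene was higher. At an adjusted p under 0.01, 3 of the 40 genes and 964 of all genes were called, and without both first replicates 34 and 4623. With the DESeq2 Wald test 18 of the 40 were called lower (12.1% of all genes tested), with limma-voom 15 (9.17%) and with no expression filter 15 (4.47%, over 30224 genes tested). Fold changes turned above 0 for 4 genes. TRIM45 was at 0.011 with total counts only, at 0.023 with limma-voom and between -0.24 and 0.14 with a library, or both first replicates, left out. Over the same omissions NOTCH2 lay between -0.64 and 0.10 (8e-04 with total counts only), BCAS2 between -0.41 and 0.011 and FAM72B between -1.12 and 0.11. The cause of these changes was not tested. Of 1070 values of 63 single genes under the alternatives, 868 kept their direction and side of the threshold, 123 lost a call, 69 gained one and 10 turned. A minimum of 5 CPM left 34 genes, at a median of -0.61.

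The labels do not say that replicate numbers pair the samples. Deviations from the group means correlated between same-numbered libraries at -0.06, 0.007, -0.03 and 0.23, and only wt replicate 4 correlated best with its own number. With the replicate number as a block, 2033 of all genes were called, the median of the 40 genes was -0.58 with 40 lower, and 11 were called lower. With 3 counts at up to 0.267 CPM, members near 1 CPM such as MAB21L3 rest on few counts.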
